A study of Arabidopsis thaliana with 6 samples.

Results

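The baseline transcriptome described here is that of Arabidopsis suspension cells grown in the dark, as read by the 3 arrays labelled uninduced at 24 h, out of 6 arrays in the study. The cells are of a culture labelled Alex and carry a fusion of ATHB8 with green fluorescent protein (GFP) that estrogen switches on. The 3 uninduced arrays received no estrogen, and the other 3 come from cells of the same genotype given 5 µM estrogen for 24 h. All cells were kept at 23 °C on a shaker at 124 rpm. All 6 arrays therefore carry the transgene, and no untransformed line is among them. The labels name 1 transgenic culture and do not say whether the replicates were separate cultures, so the spread between arrays may be technical. ATHB8 itself, a homeodomain leucine zipper factor known from the procambium, has no row under that symbol, and its uninduced level was not analysed here. Most genes in the array's annotation carry a locus code only, so it may have a row under its code.

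Of 38408 rows on the array, 16722 named 1 gene and were reduced to 16550 genes, 1 row each. The genes were ordered by the mean of the 3 uninduced arrays, and the 300 highest are described as the top set. The values are log2 hybridisation signals. Probes of different genes bind with different strength and the signals are not scaled by transcript length, so a rank is a rank of signal, not of RNA molecules. No background level was analysed, and a low signal was not shown to lie above it. In a culture, fewer cells that use a gene and less RNA of it per cell cannot be told apart.

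Plant cells hold 3 genomes. The plastid genome encodes core subunits of the photosystems, of the ATP synthase and of the plastid's own ribosome and RNA polymerase, while the nucleus encodes their light-harvesting antennae and many smaller subunits. The mitochondrial genome encodes subunits of the respiratory chain and proteins of cytochrome c maturation. Cells in the dark do not normally build chlorophyll-containing thylakoids, and nuclear photosynthesis genes are known to depend strongly on light.

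Replicate 1 stood apart from the other uninduced arrays. Across the 16550 genes, which are not independent replicates, replicates 2 and 3 had a Pearson correlation of 0.994 and a median absolute difference of 0.148 on the log2 scale. Replicate 1 correlated at 0.988 with replicate 2 and at 0.987 with replicate 3, with median differences of 0.243 and 0.249. Its closest array was replicate 1 of the induced group, with a correlation of 0.995 and a median difference of 0.0233. These 2 arrays held exactly the same value in 7346 genes (44.4%), whereas no other pair of arrays shared more than 11. The share of such genes was 13.3% in the top set (40 genes). Replicate 1 also held 9839 distinct values among the ranked genes, against 16206 and 16213 in replicates 2 and 3, and 249 genes sat at 1 single value in it. Whether the equal values were set during the authors' processing was not tested. Results are given with replicate 1, and some of the main ones also without it.

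Mean signals of the ranked genes ran from 1.16 to 13.58, with a median of 5.55. Below 3.57 lay 25% of genes and below 7.99 lay 75%, and the highest 1% began at 11.6. The medians of the 3 arrays were 5.55, 5.55 and 5.56. The 300th gene had a mean of 11.23, and the genes on both sides of that limit were level with each other. SDH1-1, a subunit of succinate dehydrogenase, stood just inside the limit with 11.23, as did AT5G26830 at rank 300, and AT3G24480 at rank 301 also had 11.23.

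**Figure D1:**
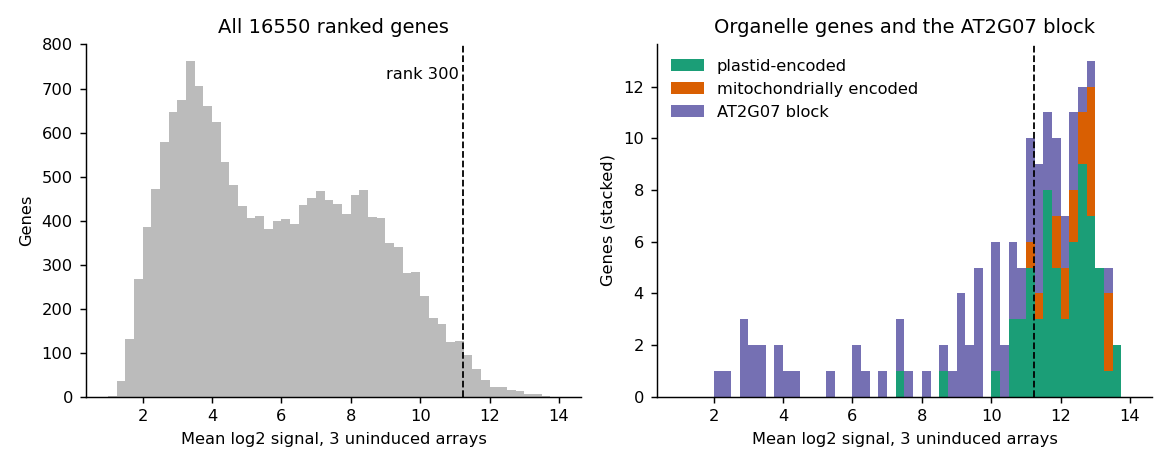
Left, number of genes by mean log2 signal of the 3 uninduced arrays for all ranked genes; right, stacked counts for the 63 plastid-encoded genes, the 18 mitochondrially encoded genes and the 70 genes of the AT2G07 block of chromosome 2. The dashed line marks the 300th gene at 11.23, and 86 of the 151 genes on the right are at or above it.

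Organelle genes filled the head of the list. Of the 20 highest genes, 15 are encoded in the plastid or the mitochondrion, 2 lie in the AT2G07 block of chromosome 2, described further on, and 3 are other nuclear genes. Among the 100 highest, 49 are organelle genes. The highest gene was atpH, the ring subunit of the plastid ATP synthase, with 13.56, 13.60 and 13.58 in replicates 1 to 3. Next came rpl20, a protein of the plastid ribosome, with 13.54, 13.58 and 13.47. The mitochondrial cox1, a core subunit of cytochrome c oxidase, was at rank 4 with 13.36, 13.42 and 13.37. The 3 arrays were nearly level for each of these genes. The other nuclear genes were AT3G63052 at rank 3 (13.41 ± 0.09, SD, n = 3), AT4G16720 at rank 5 (13.37 ± 0.07) and AT3G48140 at rank 10 (13.20 ± 0.07), which the array's annotation gives by locus code only.

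Of 63 plastid-encoded genes, 50 were in the top set (79.4%), where by construction 1.81% of all ranked genes are. In the highest 10% of genes were 61 of the 63. Their median log2 signal was 12.15, at percentile 99.6 of the ranking. Without replicate 1 that percentile was 99.5, and plastid genes made up 16.3% of the top set in place of 16.7%.

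By role, the median log2 signals of the plastid genes ran from 11.26 to 12.86. All 4 measured ATP synthase genes were in the top set, with a median of 12.86. All 5 photosystem I genes were there as well, with a median of 12.38, and psaB, which encodes one of the reaction centre proteins, had 12.93, 13.07 and 13.04. Of 6 genes for the cytochrome b6f complex, which links the photosystems, 5 were in the top set. The 13 photosystem II genes reached further down, with 9 in the top set and a median of 11.58. Among them psbA, which encodes the D1 reaction centre protein, had 12.99, 13.11 and 12.96 and stood at rank 13.

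Plastid genes for gene expression were also high in the list. Of 13 ribosomal protein genes 10 were in the top set, with a median of 12.45. All 4 genes for the plastid-encoded RNA polymerase were in it, with a median of 11.93 and an SD of 0.013 over the arrays for rpoC1. The remaining 8 genes, among them clpP for a protease subunit, accD for a subunit of the acetyl-CoA carboxylase and matK for a splicing factor, were all in it, with a median of 12.68. In that group rbcL, the large subunit of Rubisco, had 12.79, 12.84 and 12.79 at rank 27. The genes for the NADH dehydrogenase-like complex had the lowest median of the roles, 11.26, with 5 of 10 in the top set.

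Only psbM and psbT, both small photosystem II subunits, lay outside the highest 10% of genes. PsbM had 9.02, 8.74 and 8.17 at rank 2959, and psbT had 7.45, 7.56 and 7.16 at rank 5144. In both genes replicate 3 was the lowest array.

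**Figure D2:**
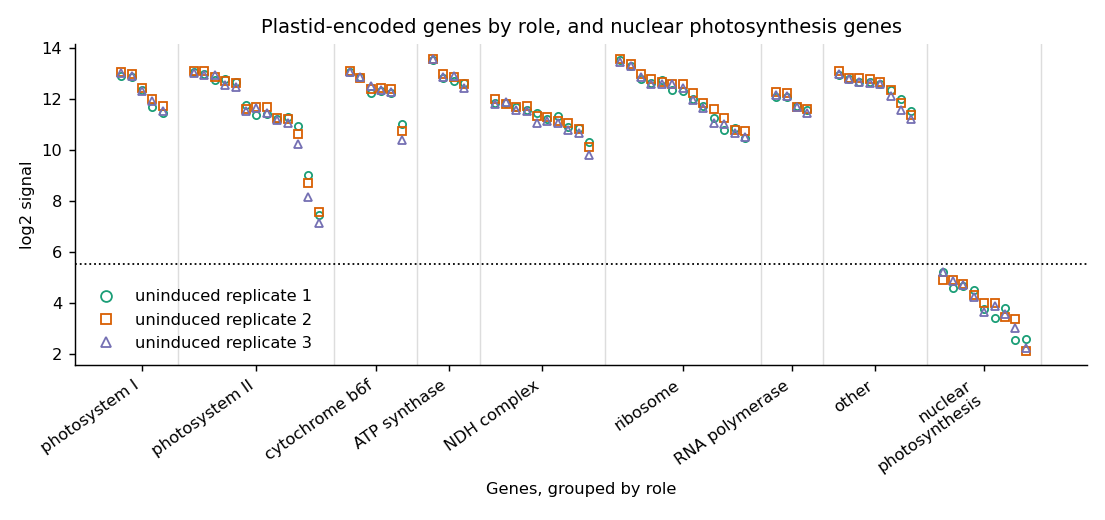
log2 signal in each of the 3 uninduced arrays (symbols) for every ranked plastid-encoded gene, ordered by mean within its role. The 9 nuclear photosynthesis genes are on the right. The dotted line is the median of all ranked genes, 5.55, and lies below every plastid gene and above all 9 nuclear ones.

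Nuclear genes of photosynthesis stood at the other side of the median. Of 9 that the array names by symbol, 0 were in the top set and 0 lay above the median of all genes. Their median was 3.82, at percentile 29.4. The highest was RCA, Rubisco activase, with 5.22, 4.93 and 5.25. The light-harvesting genes LHCB4.2 (4.80 ± 0.17) and LHB1B2 (3.77 ± 0.30) followed lower down, and PSAE-1, a photosystem I subunit, was lowest at 2.33 ± 0.23. Without replicate 1 the list's percentile was 30.7. Most nuclear photosynthesis genes are not among the symbols: 9 of the 40 mesophyll and photosynthesis markers listed were measured under their symbol.

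Among 7 genes of tetrapyrrole and chlorophyll synthesis, 5 were above the median of all genes. The highest was GSA1, which acts in the synthesis of 5-aminolevulinate, the precursor common to haem and chlorophyll, with 8.31 ± 0.14. HEMA2 (7.17 ± 0.07), the glutamyl-tRNA reductase step, and HEME1 (6.97 ± 0.10), a uroporphyrinogen decarboxylase, came next. Both genes below the median belong to the chlorophyll branch: CHLM, a methyltransferase, with 4.66 ± 0.16, and PORB, a protochlorophyllide oxidoreductase, with 3.11, 3.31 and 3.46.

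Genes without a RefSeq entry were counted as mitochondrially encoded by their symbol (nad, cox, atp, ccb, mat, rpl or orf). Mitochondrial genes with other symbols are therefore not in this list. All 18 genes of the list were in the highest 10%, where by construction 10% of ranked genes are, and 17 were in the top set. Their median was 12.61. The 8 nad genes, subunits of respiratory complex I, had a median of 12.87. The highest of them, nad1, had 13.34, 13.35 and 13.34 at rank 7, with an SD of 0.0033 that was the smallest in the top set. The gene outside the top set was ccb206, of cytochrome c maturation, at rank 346 with 11.19, 11.13 and 11.05. The symbol rpl2, at rank 9, is carried by both a plastid and a mitochondrial gene in RefSeq and was counted with the mitochondrial ones.

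A block of locus codes starting with AT2G07 lies near the centromere of chromosome 2, where a large copy of mitochondrial DNA is known to be inserted. Where a gene of the block is near-identical to a mitochondrial one, a probe may read either, and its signal cannot be assigned to one of the 2 genomes. Which genes of the block are such copies was not tested. Of 70 ranked genes in the block, 19 were in the top set (27.1%, against 1.81% of all ranked genes) and 40 in the highest 10% (57.1%). The block divided at AT2G07660. From that code on, 51 of 52 genes lay above the median of all genes, with a median log2 signal of 10.55, and all 19 top genes were among them. Before it, 5 of 18 genes lay above the median and the median signal was 3.62. That boundary was chosen after the values were seen. AT2G07741, at rank 6, had 13.27, 13.40 and 13.39. Outside the block, 32 of 2446 genes of chromosome 2 were in the top set.

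Beyond the organelles and the block, 36 genes with a symbol were in the top set. That is 2.09% of the 1724 genes with a symbol outside the organelles, near the 1.81% of all ranked genes. Another 197 genes of the top set, those of the block among them, have a locus code only and mostly were not grouped by role. The 36 were grouped by role, so the roles cover only a named part of the top set. The leading one was NAI2, at rank 42, with 12.52, 12.57 and 12.51. NAI2 is needed to form ER bodies, spindle-shaped compartments of the endoplasmic reticulum in Brassicaceae that store beta-glucosidases. PYK10, the main beta-glucosidase of root ER bodies, was at rank 61 with 12.31, 12.28 and 12.30. BGLU22, a related enzyme, was at rank 95 with 11.69, 12.07 and 12.01. The 3 arrays were almost level for NAI2 and PYK10, and replicate 1 was the low one for BGLU22.

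The rest of the ER body list was mostly high too. Of its 11 measured genes, 4 were in the top set (36.4%, against 1.81% of all ranked genes). Of the same 11, 6 were in the highest 10% and 10 above the median of all genes. The other gene in the top set was AT1G54010, for which RefSeq lists the synonym GLL23, at 11.34 ± 0.05. The jacalin-related lectins JAL34 (10.97 ± 0.16) and JAL22 (9.83 ± 0.09) completed the 6 in the highest 10%, and JAL31 (8.84 ± 0.43) and JAL33 (7.30 ± 0.14) were above the median. BGLU21 had 9.42 ± 0.16 and NAI1, the transcription factor that controls ER body genes, 7.84 ± 0.26. The exception was JAL23, at 3.08, 3.41 and 3.83. The beta-glucosidase family as a whole was not high: of 24 BGLU genes 17 lay below the median, and the 2 in the top set were PYK10 and BGLU22.

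The SEC and exocyst list, of vesicle transport, was also high. SEC10, an exocyst subunit that tethers vesicles at the plasma membrane, was at rank 55 with 12.32, 12.42 and 12.30. It has a near-identical neighbour in the genome, so its signal may include that copy. All 15 genes of this list lay above the median, with a median percentile of 85.2 (84.1 without replicate 1). SEC15B (10.22 ± 0.11) and SEC6 (9.47 ± 0.11), further exocyst subunits, were in the upper part, and AtSec20 (7.33 ± 0.11) was near the end of the list. RAB6A, a GTPase of the Golgi, was at rank 80 with 12.14, 12.12 and 12.04. Of 14 vacuolar sorting genes 13 lay above the median, as did 9 of 11 autophagy genes and 10 of 16 PRA1 genes, where by definition 50% of all genes do. These 3 lists had 0 genes in the top set. SPP, a signal peptide peptidase, had 12.02 ± 0.01.

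Protein turnover was represented by RPN12a, a subunit of the proteasome lid, at rank 72 with 12.11, 12.20 and 12.18. The 12 ubiquitin proteases all lay above the median, from UBP23 at 10.66 ± 0.04 to UBP22 at 6.45 ± 0.23, with a median percentile of 86.2. Of 16 ubiquitin-conjugating enzymes 14 lay above the median, while UBC31 (2.24 ± 0.21) and UBC29 (1.96 ± 0.15) were in the lowest 10%. MPPBETA, a subunit of the peptidase that trims proteins entering the mitochondrion, was at rank 78 with 11.98, 12.21 and 12.17.

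Genes of 5 lists for transcription and RNA handling were also mostly above the median of all genes. That held for 14 of 17 RNA polymerase subunits, 7 of 9 Mediator subunits, 6 of 6 LSM genes, 5 of 6 THO complex genes and 7 of 9 CHR chromatin remodellers. None of these 5 lists had a gene in the top set. The OTP RNA editing factors were split about evenly, with 4 of 7 above the median. EIF4A-2, an RNA helicase of translation initiation, was in the top set with 11.23, 11.25 and 11.23, as were ALATS, the alanyl-tRNA synthetase, with 11.58, 11.74 and 11.58, and VCS, a scaffold of mRNA decapping, with 11.40, 11.23 and 11.10.

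In central metabolism, the top set held TPI, triosephosphate isomerase, at 11.45 ± 0.09 and GAPC2, a cytosolic glyceraldehyde phosphate dehydrogenase, at 11.30 ± 0.18. PDC3, a pyruvate decarboxylase of fermentation, was the low member of this list at 2.72 ± 0.17. Of 8 aldehyde dehydrogenases 7 lay above the median and 5 in the highest 10%, led by ALDH2C4 at 10.76 ± 0.17. GLDH, the last enzyme of ascorbate synthesis, was in the top set with 11.45, 11.39 and 11.25. AUR1, a mitotic Aurora kinase, was there with 11.38, 11.36 and 11.28, and TUB6, a beta-tubulin, with 11.40, 11.43 and 11.37. Tubulin genes are similar in sequence, and the 6 measured ones ran from TUB6 down to TUB5 at 3.49 ± 0.64. For TUB5 replicate 1 had 2.75, the same value as induced replicate 1, against 3.78 and 3.93 in replicates 2 and 3.

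**Figure D3:**
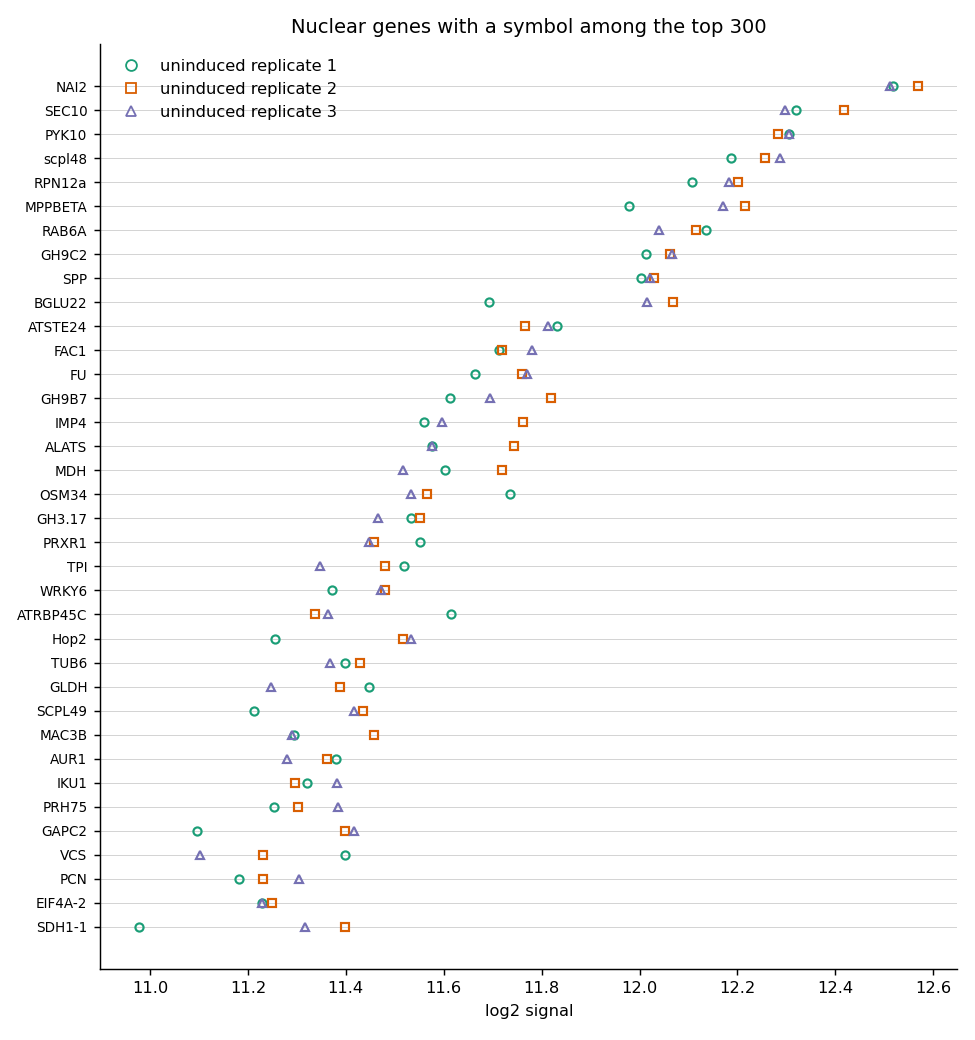
log2 signal of the 36 genes with a symbol outside the organelles that are in the top 300, in each of the 3 uninduced arrays, ordered by mean. The arrays cover up to 0.42 log2 in SDH1-1, and NAI2 leads with values of 12.51 to 12.57.

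In the cell wall and secondary metabolism lists, more genes lay below the median of all genes than above it. The split was closest to even for TBL proteins (13 below, 11 above), serine carboxypeptidase-like genes (18 and 14) and expansins (14 and 9). Of 10 xyloglucan enzymes (XTH) 7 lay below. Only the GH9 endoglucanases and serine carboxypeptidase-like genes had members in the top set, 2 each (10.5% and 6.25%, against 1.81% of all ranked genes). Expansins and UDP-glycosyltransferases had 1 gene each in the highest 10%, and cytochromes P450 had 0. Of 19 GH9 endoglucanases 14 lay below the median, yet GH9C2 stood at rank 85 with 12.01, 12.06 and 12.07 and GH9B7 at rank 140 with 11.61, 11.82 and 11.69. The next member, GH9B5, had 8.41 ± 0.22. Of 32 serine carboxypeptidase-like genes 18 were below the median, with scpl48 at rank 68 (12.19, 12.26 and 12.29) and SCPL49 at rank 240 (11.21, 11.43 and 11.42). Expansins, which loosen walls, had 14 of 23 genes below the median and a highest member, EXPA9, at 10.74 ± 0.08. Of 55 UDP-glycosyltransferases 40 were below the median and 11 in the lowest 10%, with UGT85A2 highest at 10.74 ± 0.20. Of 26 cytochromes P450 21 were below the median and 8 in the lowest 10%, and the highest, CYP71B6, had 8.46 ± 0.34.

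Among regulators, 6 of 7 WRKY factors lay above the median, led by WRKY6, known from senescence and defence, with 11.37, 11.48 and 11.47 at rank 205. Other transcription factor lists were near even, with 13 of 25 bZIP factors and 4 of 9 bHLH factors above the median. The hormone enzyme GH3.17, which joins auxin to an amino acid, was in the top set at 11.53, 11.55 and 11.47. OSM34, an osmotin-like protein, had 11.73, 11.57 and 11.53. Of 8 AUX/IAA repressors 7 lay below the median, and of 7 response regulators of cytokinin signalling 6 did.

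The SWEET genes, which encode sugar carriers, were mostly low. Of 16 measured, 13 lay below the median, and SAG29 was the highest at 8.52, 8.18 and 8.43.

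The lowest lists were small secreted peptides. The defensin-like LCR genes, the SCRL genes, named for their likeness to the pollen determinant of self-incompatibility, the plant defensins and the LURE pollen tube attractants together had 88 measured genes. Of these, 86 lay below the median and 50 in the lowest 10% (56.8%), with a median log2 signal of 2.58. Without replicate 1 the count in the lowest 10% was 46. The LCR genes alone had 41 of 67 in the lowest 10%. LURE1.2 was the lowest of all 88 at 1.41 ± 0.36. PDF1.2, a defensin induced by jasmonate, had 2.09 ± 0.14, and PDF1.2b, of similar sequence, 4.28 ± 0.22.

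SCRL26 was the exception among these peptides, with 10.45, 10.53 and 10.98 at rank 602. All 3 arrays were far above the next SCRL gene, SCRL20, at 5.12 ± 0.49. LCR39, the other gene above the median, had 5.74, 5.83 and 5.49. Of 18 RALF-like peptides, signals read by receptor kinases, 15 lay below the median, and the highest was RALFL31 at 7.71 ± 0.23. The CLE peptides were spread more evenly, with 7 of 16 above the median. CLE44, whose peptide is known to keep vascular stem cells from becoming xylem, was highest at 10.53, 10.08 and 10.25, and CLE41, which encodes the same peptide, had 6.35 ± 0.22.

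**Figure D4:**
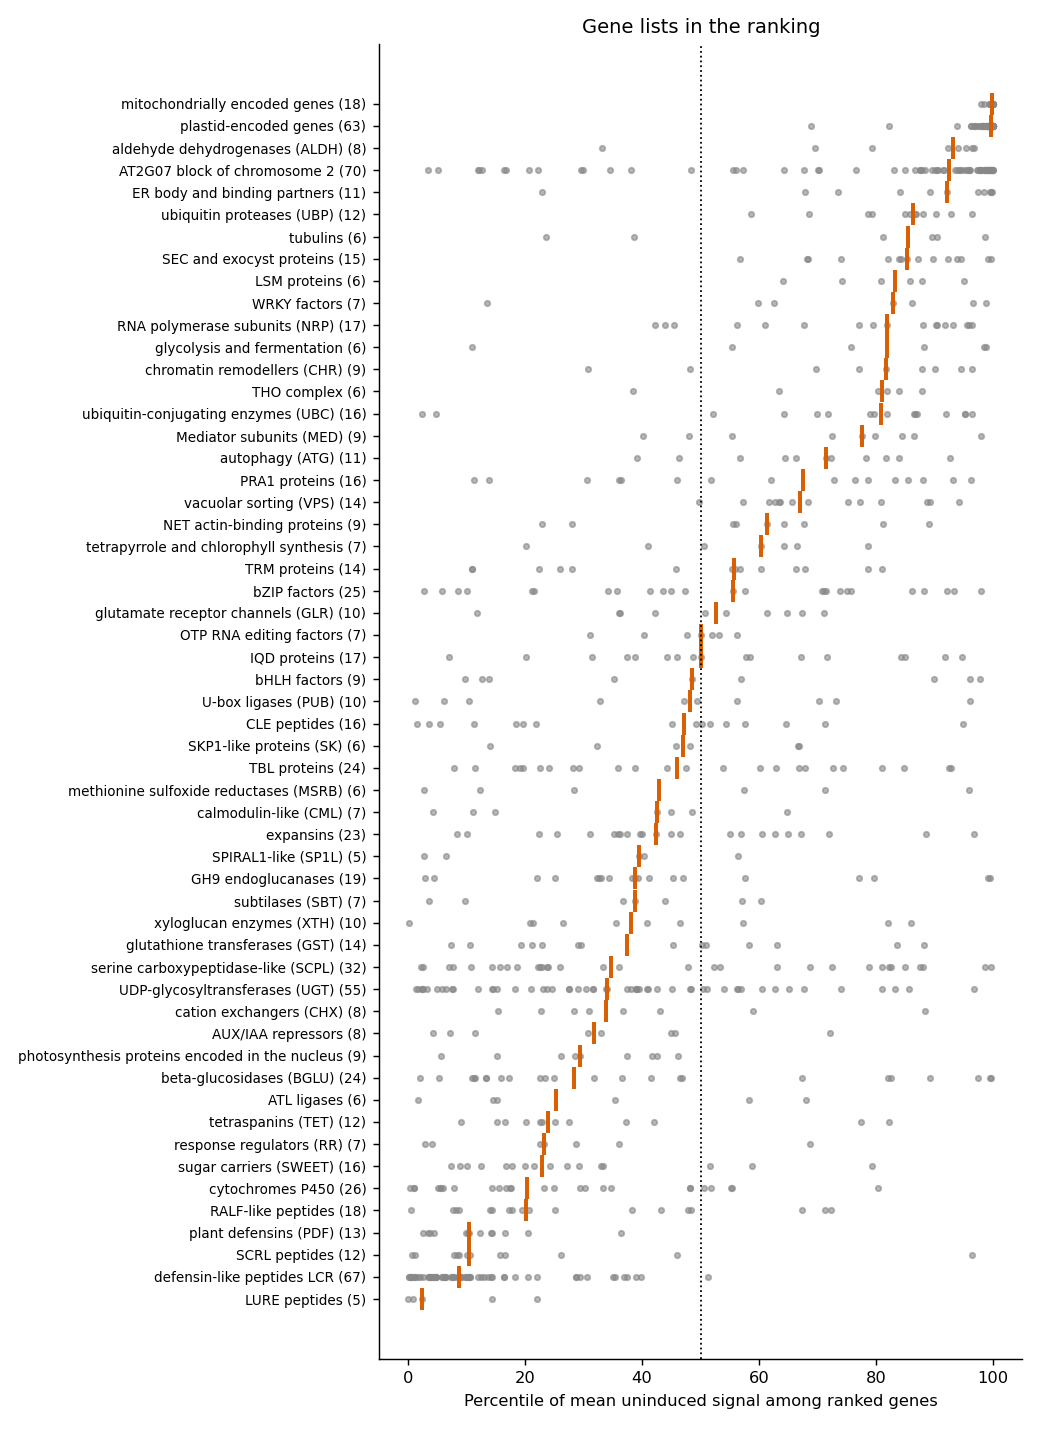
Percentile of each gene's mean uninduced signal (points) and the median of each list (bar) for lists of at least 5 measured genes, with the number of genes in brackets. Organelle genes lie at the top end (medians 99.8 and 99.6) and the LCR and LURE peptides at the low end (8.75 and 2.35).

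Markers of differentiated tissues were few on the array under their symbols. All 3 measured guard cell genes were low: SPCH had 3.09 ± 0.17, FMA 3.07 ± 0.10 and MUTE 2.30 ± 0.15. The shoot meristem signal CLV3 had 1.99 ± 0.17 and the oil body gene OLEO3 of seeds 3.05 ± 0.20. Of the 2 pollen genes measured, the pectin methylesterase VGD1 had 2.48 ± 0.51 and the actin ACT12 5.12 ± 0.09, closer to the median of all genes. The root hair expansins EXPA7 (3.78, 4.43 and 4.38) and EXPA18 (3.94 ± 0.38) were below the median of all genes. Of the 2 xylem genes measured, GUT2, a xylan synthesis enzyme, had 8.71, 8.54 and 8.47, and IRX15, also of xylan synthesis, 2.91, 2.88 and 3.18. For phloem, flower organs and root meristem 0 listed markers were measured. No marker list defines the suspension line itself, so its label was not checked beyond these genes.

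Spread between the 3 arrays was smaller among genes of high signal. The median SD was 0.184 over all genes and 0.0900 in the top set. It was 0.245 in the lowest 10% of genes and 0.109 in the highest. The arrays lay within 0.5 log2 of each other in 11567 genes (69.9%) and in 292 of the top 300. They differed by over 1 log2 in 759 genes (4.59%), of which 1 was in the top set. Replicate 1 was the array farthest from the median of the 3 in 8437 genes (51.0%), against 3897 and 4216 for replicates 2 and 3. In the top set it was the farthest in 137 genes. It lay at least 1 log2 from both other arrays in 201 genes, 101 higher and 100 lower, against 23 genes for replicate 2 and 26 for replicate 3. In 101 of the 201, replicate 1 of the induced group held exactly the same value, against 44.4% of all ranked genes. Over the 9204 genes without equal replicate 1 values the median SD was 0.165. Equal values made up 72.1% of the lowest 10% of genes and 13.8% of the highest, where the SD was lower. Whether signal level accounts for the 0.165 was not tested. None of the 201 was in the top set.

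**Figure D5:**
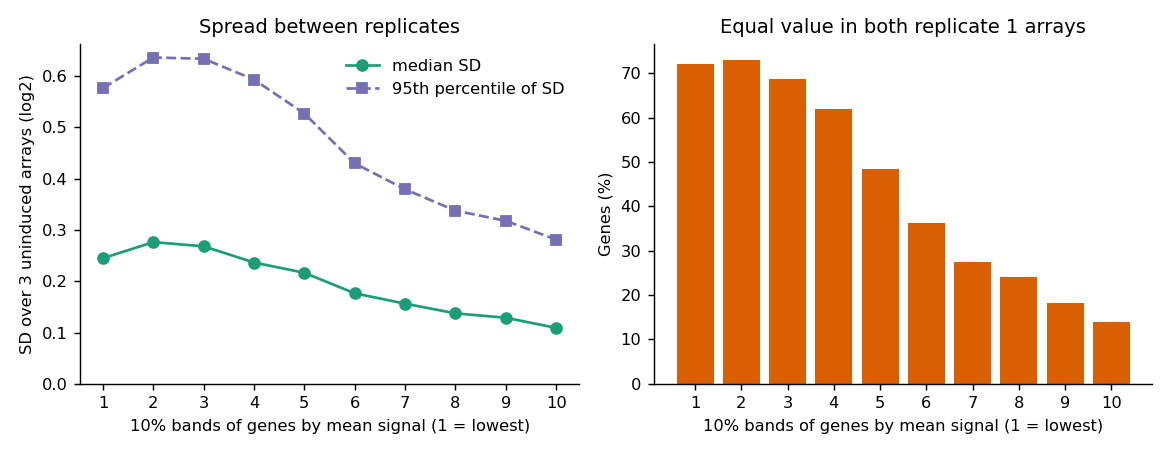
Left, median and 95th percentile of the SD over the 3 uninduced arrays in 10 equal bands of genes ordered by mean signal; right, percent of genes with exactly equal values in the uninduced and induced replicate 1 arrays. With band 1 the lowest, the median SD is 0.245 in band 1, peaks at 0.276 in band 2 and is 0.109 in band 10. The share of equal values is 72.1%, 73.0% and 13.8% in the same bands.

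A few high genes did differ between arrays. AT5G15200, at rank 257, had 11.97 in replicate 1 and 11.05 and 10.93 in the others, an SD of 0.56. Replicate 1 of the induced group was high as well, at 11.98. AT2G34480 had the same order, with 11.98, 11.45 and 11.28, and the induced arrays gave 12.07, 11.24 and 11.28. AT4G17520 went the other way, with 11.61, 12.11 and 12.31, and the induced arrays gave 11.56, 12.18 and 12.13. AT3G02190 had 10.95, 11.39 and 11.86, and replicate 1 of the induced group held exactly the same value as uninduced replicate 1. Among genes of middle signal the SD was largest in AT4G00651 (1.22), with 2.75 in replicate 1 and 4.89 and 4.83 in the others. Replicate 1 of the induced group held exactly the same value for this gene, and both replicate 1 arrays also held it for TUB5. It is thus one of the repeated values of replicate 1. AT1G03220 had 5.13 in replicate 1 against 3.18 and 3.11, and AT5G36657 had 2.95, 4.21 and 1.90, where the 3 arrays were all apart.

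Each array's own 300 highest genes overlapped widely with the top set. Replicates 1, 2 and 3 shared 275, 288 and 285 genes with it, and 256 genes were in the top 300 of all 3 arrays. The lowest single value of any top-set gene was 10.93. Ordering by replicates 2 and 3 alone kept 288 of the 300.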

How the data were processed

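RNA was turned into labelled sense-strand DNA for whole-transcript arrays, per the labels' protocols. The deposited values are log2 signals, and the submitters' processing notes name Affymetrix Expression Console 1.3; background correction, normalization and build are not given in the sources used here, so no coordinates are given. Values were used as deposited, without a floor or filter. Rows naming 1 gene in the array annotation were kept, and for 146 genes with several rows the row with the highest mean over all 6 arrays was taken. Of the 16550 genes 1805 carry a symbol and 14745 a locus code only, so lists built from symbols hold part of each family. A RefSeq table (TAIR10.1) gave synonyms and chromosomes; 139 genes have no entry. Means, SDs (n = 3) and ranks were computed with Python 3.11.15, pandas 2.3.3 and numpy 2.4.6, and the ranking was tested on simulated data. No test between groups was made. Array number limits the precision.

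The genes and lists were chosen with earlier results of these data known, and the lists were redrawn from the annotation's names after the first ones matched few genes. Genes named are the 20 highest, those at the limit of the top set, the 4 highest and 2 lowest of each list and the most and least variable; the role-by-role examples beyond these were chosen after their values were seen. The result of 1 list is not reported here.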

Additional observations from a re-analysis of the deposited data

How the results depend on the processing

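No paired analysis was possible because every result is a description of 1 group and comes from no test. Leaving out each uninduced array in turn kept 288 to 292 of the top 300 genes; the median of the arrays kept 295, quantile normalization 298, and leaving out genes that share all 6 values with another row 296. The median difference of 2 arrays was 0.148 to 0.249 over these omissions, lowest without replicate 1. The median percentile of the nuclear photosynthesis genes was 27.8 to 30.9, and that of the RALF-like peptides 19.99 to 23.5, highest without replicate 1. Plastid genes made up 16.7% of the top 300, 26% of the top 150 and 9.67% of the top 600; mitochondrial genes 5.67%, 10.7% and 3%; the AT2G07 block 6.33% of the top 300 and 4.17% of the top 600. Ranked only among genes above the 25th percentile, which drops low members by construction, the median percentiles were 99.4 for plastid genes, 99.7 for mitochondrial genes, 80.3 for SEC and exocyst genes, 81.6 for ubiquitin proteases, 16.7 for nuclear photosynthesis, 15.2 for the cysteine-rich peptides, 30.8 for RALF-like peptides and 30.9 for cytochromes P450. The other 86 alternative values moved by less than their limits. Promoter motifs and protein lengths, also planned, were not run, since promoter and protein sequences were not used here.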

Other observations

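The ranking covers named genes only. At or above the mean of the 300th gene lay 1277 rows of the array, of which 313 name 1 gene, 57 name several and 907 (71.0%) have no gene name. The 907 rows hold 841 distinct sets of values, and the highest of them has a mean log2 signal of 14.07, above atpH at 13.58.

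Repeated values within an array were common in both replicate 1 arrays. In the uninduced one 46.1% of ranked genes share their value with another gene, and in the induced one 45.1%, against 3.38% and 3.41% in uninduced replicates 2 and 3. In the lowest 10% of genes uninduced replicate 1 holds 467 distinct values and replicates 2 and 3 hold 1629 and 1623. Among the top 300 genes each uninduced array holds at least 293 distinct values.

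AT3G09630, of locus code only, lies outside the top set at rank 2948 and was picked after its values were seen. It had 9.84 in uninduced replicate 1 and 8.08 and 8.04 in the others, and the induced arrays gave 9.80, 8.07 and 8.08.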
